A study of Saccharomyces cerevisiae with 3 samples.

Results

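The genes described here are 152 open reading frames of budding yeast that carried no gene name on the array and that stood at least 2-fold apart from 1st generation cells in cells of the 11th generation. Of 5792 gene features on the array, 1137 named a single locus and had an empty gene-name entry, 7 of these were left out by name, and 774 of the rest gave signal above a limit in both channels. Among those 774, 98 were higher in the older cells and 54 were lower. The 622 others lay within 2-fold. The members were chosen by their values on the 11th generation array alone, namely the raw signals of both channels and a log2 ratio of at least 1 or at most -1. Values from that array are therefore a description, and only the arrays of the 4th and 7th generation hold values that the choice did not use, still against 1st generation cells of the same study. Of the 7 left out by name, 4 were also past 2-fold and above the limit (YHR020W, YLR154C-G, YGR131W and YLR414C), and 356 further features were below the limit in at least one channel, 352 of them in Cy5.

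All RNA came from strain BY4742, which is haploid, of mating type alpha, and lacks working HIS3, LEU2, LYS2 and URA3 genes. Cells had been tagged with biotin, grown in the rich medium YPD and, at the 4th, 7th and 11th generation, pulled out with beads that bind biotin. RNA of each older generation was labelled with Cy3 and mixed with Cy5-labelled RNA of 1st generation cells of the same strain, and each mixture was hybridised to 1 array. The sources used here do not say how cells of the 1st generation were collected, nor if their RNA was prepared once for the 3 hybridisations. Neither replicates nor dye-swapped arrays exist for any generation, so each value is that of a single array and no test was possible. Generation and dye are confounded on every array and cannot be told apart. RNA came from whole populations, in which fewer cells of a kind and less RNA per cell cannot be told apart.

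A budding yeast mother cell divides asymmetrically and can bud only a limited number of times, and its replicative age is the number of daughters it has made. The daughter builds its own wall, so biotin fixed to the mother's surface stays with the mother and marks her through later divisions. Open reading frames without a name had not been given a standard gene name when the array was annotated, although the deposited annotation describes a function for some of them. Among them are many short, weakly expressed, condition-dependent or chromosome-end genes. For 101 of the 152 a gene name exists in the current reference table, 47 are still listed by systematic name, and 4 (YBL039W-A, YIR044C, YIL080W and YDL038C) have no entry there.

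Ratios are given as log2 of Cy3 over Cy5 after subtraction of the mean of the blank spots, minus the median of the print block, 1 of 16, in which the probe lies. A positive log2 ratio means a higher ratio of older to 1st generation signal than that of the typical probe of that block, and 1 is 2-fold. The signal limit was 2 times the mean of 320 blank spots in each channel, which came to 50.1 in Cy5 and 89.5 in Cy3 on the 11th generation array. Median raw signals lay between 161 and 178 in Cy5 and between 496 and 592 in Cy3. The Cy3 channel was thus the brighter one everywhere, with block medians of the uncentred log2 ratio between 1.09 and 2.40. Blocks with even numbers lay 0.81 to 0.83 log2 units above those with odd numbers on all 3 arrays. The 8 spots for ACT1 had a median raw Cy5 signal of 13380 in odd blocks and 7041 in even ones at the 11th generation, against 15378 and 15454 in Cy3, so that this offset lay in Cy5. The ACT1 log2 ratios had a standard deviation of 0.109 at the 4th and 0.0989 at the 7th generation, and of 0.685 at the 11th, where 1 spot stood apart at -3.11. Without the farthest spot of each array the SD was 0.0857, 0.0624 and 0.130. Across 4682 features measured on all 3 arrays, the Cy5 signals of any 2 arrays differed with an SD of 0.326 to 0.346 log2 units, and the ratios of the 7th and 4th generation differed with an SD of 0.209. In Cy5, markers of mating type matched the label. The 4 alpha-specific genes had a median Cy5 percentile of at least 92.5, and the 6 a-specific genes of at most 23.8. In Cy3 at the 11th generation, the percentiles of SAG1, STE3, MF(ALPHA)1 and MF(ALPHA)2 were 44.2, 59.8, 82.6 and 87.5. Of the a-specific genes, STE2 and AGA2 were below the limit on every array, and MFA1, MFA2, BAR1 and STE6 were above it. LEU2, LYS2 and URA3 were below the limit on every array, while HIS3, of which the strain carries a partial deletion, was above it.

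The 98 higher members make up 12.7% of the unnamed features tested at the 11th generation, whereas 7.94% of 3981 named single-locus features were at least 2-fold higher. The 54 lower members make up 6.98%, against 12.9% of named features. These shares are those on which the members were chosen, so nothing is read from them beyond the counts. The split between the directions also depended on the centring. With the median of the whole array in place of the block median, 102 unnamed features were higher and 91 lower, and the authors' deposited ratio gave 105 and 90. Of the 98 higher members 41 lay in even blocks, as did 34 of the 54 lower members and 369 of the 774 unnamed features.

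The higher and lower members differed in median signal, though their raw Cy5 ranges overlapped, 50.6 to 10723 and 57.1 to 1756. The higher members had a median raw Cy5 signal of 94.1 and a median raw Cy3 signal of 1018, while the lower members had 301 and 461. By the median the higher members were thus dimmer in Cy5 than the lower ones, and 56 of the 98 reached 3 times the blank mean in both channels. This Cy5 signal is the denominator of the ratio by which the members were chosen, so the difference follows in part from the choice. The unnamed features tested had medians of 150 in Cy5 and 575 in Cy3. One member, SPO24 (YPR036W-A), a small gene regulated by the drug-resistance factor Pdr1 according to the deposited annotation, was far brighter than the rest, with raw Cy5 signals of 11693, 11013 and 10723 and raw Cy3 signals of 32665, 38210 and 65535 at the 4th, 7th and 11th generation. Its last Cy3 signal was at the maximum of the scanner and so is only a lower bound. Its 11th generation log2 ratio of 1.08 came below 2-fold with the median of the whole array, at 0.71, and with the deposited ratio, at 0.72.

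**Figure D1:**
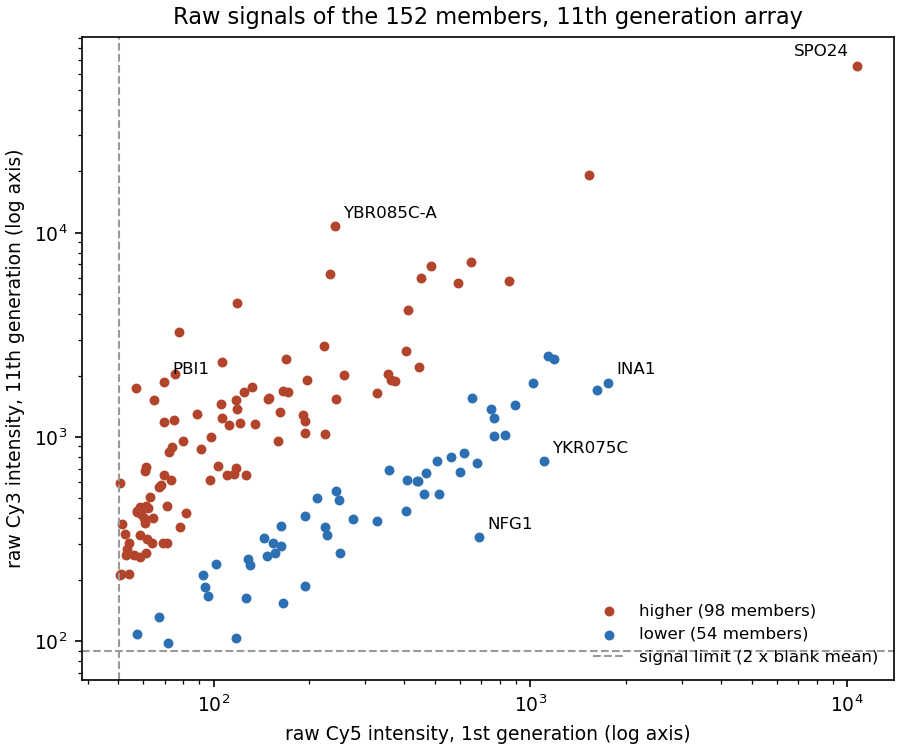
Raw Cy5 signal (1st generation, horizontal, log axis) against raw Cy3 signal (11th generation, vertical, log axis) of each member on the 11th generation array, with 98 higher members in red, 54 lower members in blue and dashed lines at the signal limits of 50.1 and 89.5. Higher members lie further left (median Cy5 signal 94.1) than lower ones (median 301), and SPO24 sits at the scanner maximum of 65535.

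The shares past 2-fold moved with brightness for named and unnamed features alike. When all tested single-locus features were split by raw Cy5 signal into 3 equal groups, 18.7% of the unnamed and 14.9% of the named features in the dimmest group were higher. In the middle group the shares were 7.25% and 7.41%. In the brightest group they were 7.84% of 153 unnamed features and 2.45% of 1429 named ones. Lower features followed the opposite order, from 3.06% of unnamed and 5.28% of named features in the dimmest group to 16.3% and 25.1% in the brightest. The dimmest group held 359 of the 774 unnamed features and 1230 of the 3981 named ones, so unnamed features were more often dim. The median log2 ratio moved with brightness as well, from 0.30 for dim unnamed features to -0.29 for bright ones, and from 0.24 to -0.47 for named ones. The Cy5 signal used for this split is also the denominator of the ratio, so part of the trend is built in. The part of brightness in the members' ratios was not tested.

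**Figure D2:**
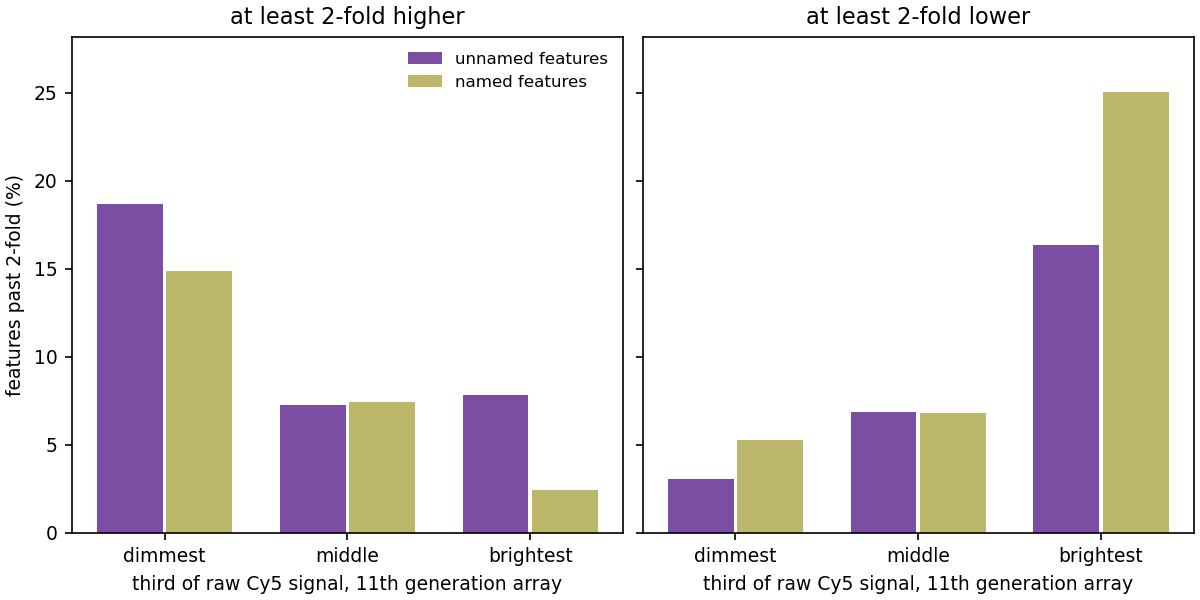
Percentage of features at least 2-fold higher (left) or lower (right) at the 11th generation, in the dimmest, middle and brightest group by raw Cy5 signal, for unnamed (purple) and named (olive) features. Bars stand at 18.7%, 7.25% and 7.84% for higher unnamed features and climb from 3.06% to 16.3% for lower ones, and the named features fall from 14.9% to 2.45% on the left and climb from 5.28% to 25.1% on the right.

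PBI1 (YPL272C), annotated on the array as induced by the antifungal ketoconazole, had the highest ratio of all members. Its raw Cy3 signal was 174, 260 and 1856 at the 4th, 7th and 11th generation, while its raw Cy5 signal was 50.2, 45.3 and 69.8. The Cy5 values hardly left the limit, and the 4th generation value was below it. The log2 ratio was 2.08 at the 7th and 3.98 at the 11th generation, which is 15.8-fold at the latter. DPI8 (YJL133C-A), a small protein found in purified mitochondria, gave log2 ratios of 1.34, 2.25 and 3.89 at the 4th, 7th and 11th generation. Its raw Cy3 signal went from 808 through 1251 to 4532, with Cy5 signals of 146, 120 and 118, so its highest Cy3 signal met its lowest Cy5 signal.

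RTC3 (YHR087W), a single-domain protein that resembles part of the ribosome maturation factor Sdo1, had log2 ratios of 1.93, 1.98 and 3.76. YHR138C, which resembles the protease B inhibitor Pbi2, had 2.32, 2.47 and 3.63. Both were past 2-fold on every array, nearly level between the 4th and 7th generation, and higher again at the 11th, where they reached 13.6-fold and 12.4-fold. PBI2 itself had log2 ratios of -0.17, 0.25 and 1.31, each below that of YHR138C on the same array. YBR085C-A, a short protein of cytoplasm and nucleus, was the brightest of the 12 highest members, with raw Cy3 signals of 4908, 4677 and 10808 against Cy5 signals of 271, 251 and 241. Its log2 ratio of 3.29 at the 11th generation is 9.77-fold, and it was 2.30 and 2.26 on the earlier arrays.

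LSO1 (YJR005C-A), a late-annotated small ORF, had raw Cy3 signals of 160, 191 and 1732 at the 4th, 7th and 11th generation. Its Cy5 signals of 36.9, 35.7 and 56.9 passed the limit only on the last array, and they differed 3.83-fold between arrays after blank subtraction and scaling, so its 10.7-fold ratio rests on 1 array, the one with its highest Cy5 signal. YLR031W had log2 ratios of 0.97 and 3.11 at the 7th and 11th generation and was below the limit at the 4th. DFP3 (YCR007C), an integral membrane protein of the DUP240 family, went from 0.33 through 0.88 to 2.85. These 3 genes were under 2-fold, or not measured, on the earlier arrays and at least 7.21-fold higher on the last.

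RCH1 (YMR034C), a carrier of the SLC10 family that takes part in calcium homeostasis, had log2 ratios of 1.55, 1.55 and 2.82. YPL088W, a putative aryl alcohol dehydrogenase, had 1.97, 2.23 and 2.76. NCW2 (YLR194C), a structural protein of the cell wall, had 0.79, 1.36 and 2.61, with raw Cy3 signals of 1721, 2211 and 6293 against Cy5 signals of 261, 225 and 232. In NCW2 the rise in Cy3 signal from array to array was therefore many times larger than the movement of Cy5. The 12 highest members were all past 2-fold under 5 other ways to compute the ratio, and so were the 12 lowest.

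**Figure D3:**
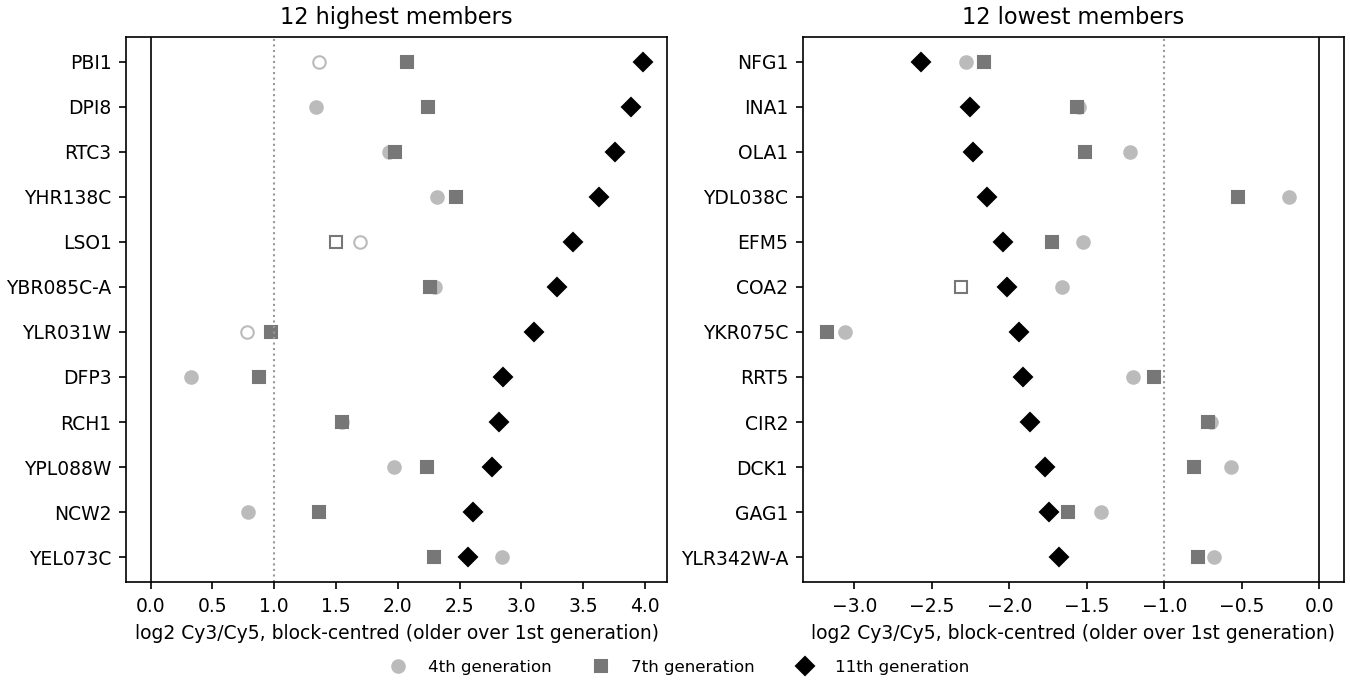
Log2 ratio of older over 1st generation cells for the 12 highest (left) and 12 lowest (right) members on each array, with open symbols where a channel was below the signal limit and a dotted line at 2-fold. Most of the highest members are farthest from 0 at the 11th generation, PBI1 at 3.98 and DPI8 at 3.89, whereas YKR075C lies farther from 0 at the 7th (-3.18) than at the 11th (-1.94).

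Not every high member was highest in the oldest cells. CUR1 (YPR158W), which helps to sort misfolded proteins into deposits near the nucleus, had log2 ratios of 3.16, 2.97 and 2.34 at the 4th, 7th and 11th generation. Its raw Cy3 signal was 2217, 1368 and 1236, so it was highest in the youngest of the older cells. YEL073C, regulated by inositol and choline per the deposited annotation, had 2.84, 2.30 and 2.57. UPS2 (YLR168C), a mitochondrial lipid transfer protein, had 1.87, 1.44 and 1.36. At the 4th generation CUR1 and YEL073C were the highest members of all, at 8.94-fold and 7.18-fold.

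NFG1 (YLR042C), a negative regulator of filamentous growth that the array annotated to the cell wall, was the lowest member. Its raw Cy5 signals were 717, 665 and 690, and its raw Cy3 signals were 352, 346 and 322, a range in either channel far smaller than the gap between them. The log2 ratios were -2.28, -2.17 and -2.57, and at the 11th generation NFG1 was 5.94-fold lower. INA1 (YLR413W), a putative protein when the array was annotated, had -1.55, -1.56 and -2.25. OLA1 (YBR025C), an ATPase of the Obg-like family that binds ribosomes, had -1.22, -1.51 and -2.24. In INA1 the raw Cy3 signal was 3011, 2741 and 1844, so it was lowest in the oldest cells, with Cy5 signals of 2113, 1936 and 1756.

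EFM5 (YGR001C), which methylates translation elongation factor eEF1A, had log2 ratios of -1.52, -1.72 and -2.04. RRT5 (YFR032C), transcribed during sporulation, had -1.20, -1.07 and -1.91. COA2 (YPL189C-A), an assembly factor of cytochrome oxidase, had -1.66 at the 4th and -2.01 at the 11th generation and was below the limit at the 7th, where its raw signals were 53.4 in Cy5 and 55.1 in Cy3. Its Cy5 signal differed 3.01-fold between arrays. YDL038C had log2 ratios of -0.19, -0.52 and -2.14, and its raw Cy3 signal was 947, 837 and 389 while Cy5 was 288, 293 and 327. It stood out among the 12 lowest members in that it was under 2-fold on both earlier arrays by a wide margin.

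CIR2 (YOR356W), a mitochondrial flavoprotein oxidoreductase, had -0.70, -0.72 and -1.87, and DCK1 (YLR422W), a relative of the DOCK exchange factors, had -0.57, -0.81 and -1.77. YKR075C went the other way with generation: it was 8.35-fold lower at the 4th, 9.03-fold at the 7th and 3.83-fold at the 11th generation. Its raw Cy5 signal was steady at 1198, 1157 and 1100, while its raw Cy3 signal was 347, 316 and 764. The Cy3 signal from 11th generation cells was thus more than that of either earlier generation, while the ratio was still below that of the typical probe.

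On the arrays that the choice did not use, most members lay on the same side as at the 11th generation. Of the 98 higher members, 91 were measured at the 4th generation, 87 of them above 0, and 30 (33.0%) were at least 2-fold higher, where 3.80% of named and 5.45% of unnamed features were. At the 7th generation 94 were measured, 92 of them above 0, and 37 (39.4%) were at least 2-fold higher, against 4.86% of named and 6.23% of unnamed features. Their median log2 ratio was 0.80, 0.88 and 1.39 at the 4th, 7th and 11th generation, while the median of all features was -0.035, -0.036 and -0.066. The 7 higher members without a 4th generation value were PBI1, LSO1, YLR031W, CPP3, YDR476C, MTE1 and CAL4. All 3 arrays have the 1st generation as their reference, so these shares are not independent of the choice of members.

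Of the 54 lower members, all were measured at the 4th generation, 51 of them below 0, and 26 (48.1%) were at least 2-fold lower, against 7.66% of named and 5.84% of unnamed features. At the 7th generation 53 were measured, 51 of them below 0, and 24 (45.3%) were at least 2-fold lower, against 7.74% of named and 5.72% of unnamed features. Their median log2 ratio was -0.93, -0.98 and -1.36. In both directions the medians of the 4th and 7th generation lay within 0.1 of each other. The 11th generation medians were farther from 0, on the array by which the members were chosen.

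Among the 90 higher members measured on all 3 arrays, 26 were past 2-fold on each, 8 at the 7th and 11th generation, 3 at the 4th and 11th, and 53 at the 11th alone. For 84 of the 90 the 11th generation ratio was the largest, and 54 stood in the order of generations. Among the 53 lower members measured throughout, 22 were past 2-fold on each array, 2 at the 7th and 11th, 3 at the 4th and 11th, and 26 at the 11th alone. For 43 of the 53 the 11th generation ratio was farthest from 0, and 30 stood in the order of generations. Since the members were picked for a large ratio on the last array, that array has the largest ratio in part by choice. At the 7th generation 56 of the 90 higher members lay above their 4th generation ratio. Among the 53 lower members, 33 lay below theirs. For none of these patterns was the share over all features counted, so no steady rise or fall with generation is read from them.

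**Figure D4:**
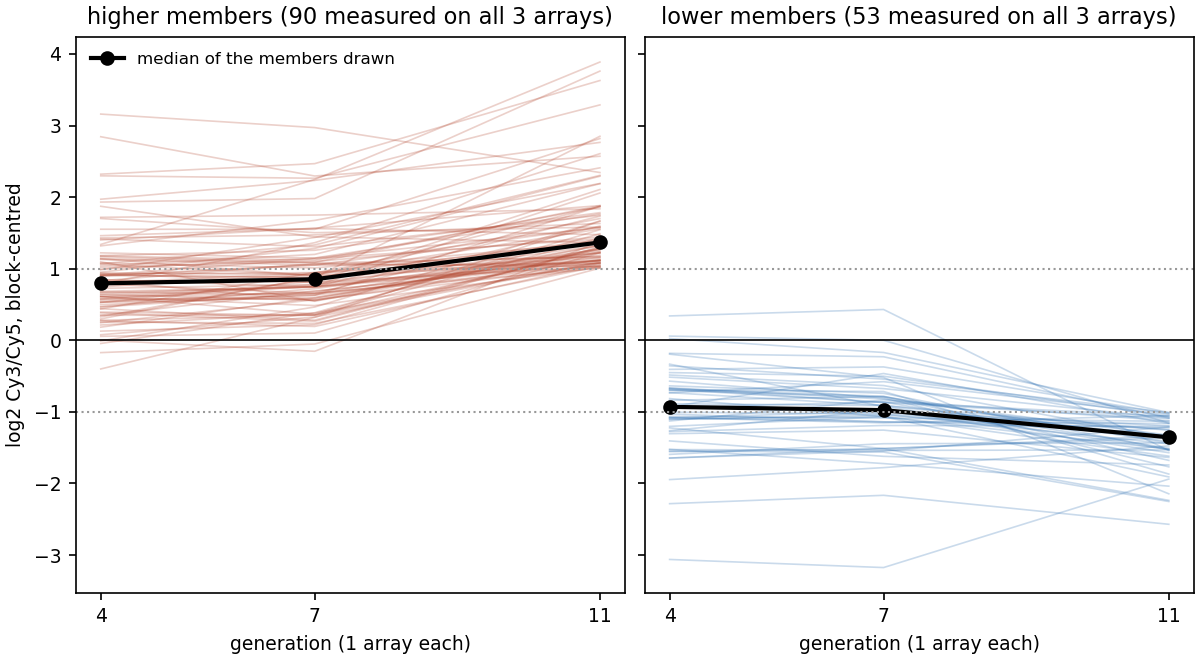
Log2 ratio against generation for the 90 higher (left, red) and 53 lower (right, blue) members measured on all 3 arrays, with their median in black and dotted lines at 2-fold. The medians of the lines drawn go from 0.80 through 0.85 to 1.37 and from -0.93 through -0.98 to -1.36.

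Among the 16 higher members that were under 0.5 on the log2 scale on both earlier arrays, CIS1 (YLR346C), which acts when import into mitochondria is blocked and is a target of drug-resistance factors, had log2 ratios of 0.06, 0.10 and 1.22. Its raw Cy3 signal was 612, 672 and 1895, with Cy5 signals of 172, 176 and 197. YCT1 (YLL055W), a cysteine transporter, had -0.40, 0.32 and 1.66. ROQ1 (YJL144W), a hydrophilin that redirects the ubiquitin ligase Ubr1 under stress, had 0.28, 0.35 and 1.43. The ratios of these 3 genes were close to that of the typical probe at the 4th and 7th generation. At the 11th they were 2.33-fold to 3.17-fold above it.

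ECL1 (YGR146C), whose extra copies lengthen chronological lifespan, had 0.35, 0.35 and 1.24. ARA2, an arabinose dehydrogenase, had -0.04, 0.38 and 1.49, and RDL1, a sulfurtransferase of the mitochondrial outer membrane, had 0.08, 0.33 and 1.08. Of the 16, only 4 stayed past 2-fold under all 5 other ways to compute the ratio, CIS1, YCT1, ARA2 and YGR161W-C. ECL1 was at 0.90 with the median of the whole array, RDL1 at 0.50 with that median, and ROQ1 at 0.85 with loess within blocks.

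Among lower members, 5 were under 0.5 in size on both earlier arrays: RKM3, EFM2, TVS1, TMN3 and MYG1. EFM2 (YBR271W), another methyltransferase of elongation factors, crossed from 0.34 and 0.43 to -1.54. Its raw Cy3 signal was 884, 815 and 166 and its raw Cy5 signal 186, 160 and 96.1, so both channels were at their lowest on the 11th generation array. MYG1 (YER156C), an exonuclease, had 0.06, 0.00 and -1.15. None of the 5 stayed past 2-fold under all 5 other ways to compute the ratio, and EFM2 was at -0.82 with loess over the array.

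The Cy5 channel, which holds 1st generation RNA on every array, gives the nearest thing to a repeat measurement. Among members measured on all arrays it differed by over 1.5-fold between arrays for 5 of 90 higher and 4 of 53 lower members, against 50 of 741 unnamed and 390 of 4682 features in all. When the 11th generation Cy3 signal was set against the Cy5 signal of the 4th and 7th generation arrays in place of its own, 86 of the 90 higher members were still past 2-fold and so were 47 of the 53 lower ones. Their median log2 ratio was then 1.55 and -1.24. The Cy3 signal in this ratio is still the one by which the members were chosen. Cy5 differed between arrays by a median of only 1.17-fold for higher and 1.13-fold for lower members. These counts are therefore largely set by the choice and are no independent repeat. AIM6 (YDL237W) turned its sign under that choice, from -1.20 to 0.43, with Cy5 signals that differed 3.19-fold between arrays. Its own log2 ratios of -1.28, -1.19 and -1.20 were level.

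A pair of members related to Reg1, a regulatory subunit of the phosphatase that acts in glucose repression, stood on opposite sides. YOR062C had log2 ratios of 1.32, 1.67 and 2.41, and YKR075C had -3.06, -3.18 and -1.94. Both are annotated on the array as regulated by glucose. Their ratios differed in sign on all 3 arrays. INA1 likewise lay opposite PUN1 (YLR414C), its neighbour on the chromosome, which the choice of members leaves out. PUN1, a plasma membrane protein, had 0.47, 0.16 and 2.78, so only the 11th generation array set it past 2-fold. Both pairs were picked after the values had been seen, so their opposite sides are a description only.

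The DUP240 family of small membrane proteins, many of them encoded in a cluster on chromosome I, gave 2 members, DFP3 and DFP4 (YHL044W). DFP4 had log2 ratios of 0.53, 0.83 and 2.11, the same course as DFP3. Of the other 8 features annotated to the family, UIP3 had a log2 ratio of 1.08 at the 11th generation and is a named gene, PRM8 had 0.87, DFP2 0.33, KTD1 0.07 and MST28 -0.99. DFP1, PRM9 and MST27 were below the signal limit there. Over all features tested at the 11th generation, 12.7% of unnamed and 7.94% of named ones were higher. The family was picked, by its mention in the deposited descriptions, after the values had been seen. Genes of this family are close relatives in sequence, so values of single genes are uncertain.

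Of 5 features of the CYSTM family, short proteins with a cysteine-rich membrane end, CPP1 (YBR016W) and CPP3 (YDR034W-B) are members. Both were higher, as were 12.7% of all unnamed features tested. CPP1 had log2 ratios of 0.89, 1.05 and 1.07, and CPP3 had 2.12 at the 11th generation and was below the limit before. YDL012C and CPP2 (YDR210W) were near 0 at -0.049 and -0.065. MNC1 (YBR056W-A), whose name entry on the array was not the blank that the choice required, had 2.71, 2.94 and 4.78, which is 27.4-fold at the 11th generation and above every member. Neither CPP1 nor CPP3 stayed past 2-fold under all 5 other ways to compute the ratio: CPP1 was at 0.88 with the median of the whole array and CPP3 at 0.82 with loess over the array.

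Enzymes that methylate elongation factors (EFM), ribosomal proteins (RKM) or the RNA of the large ribosomal subunit (BMT) contributed 8 members from 14 features whose current name begins so. EFM5, EFM2, BMT6, EFM3, BMT2 and RKM3 were lower at the 11th generation, with log2 ratios from -2.04 to -1.01. EFM6 and RKM5 were higher, at 1.75 and 1.16. EFM3 had -1.64, -1.55 and -1.21, and BMT6 had -0.67, -0.86 and -1.51, so the lower enzymes did not share a course. EFM6 had 1.42, 1.31 and 1.75, and RKM5 had 1.14, 1.08 and 1.16. Among the 6 that are not members, RKM1 had -1.36 and is a named gene, RKM2, RKM4, EFM4 and BMT5 lay between -0.39 and 0.42, and EFM1 was below the limit. This grouping was drawn from current names after the values had been seen, and the shares over all unnamed features were 12.7% higher and 6.98% lower, those over named features 7.94% and 12.9%. EFM5, BMT6, EFM3 and EFM6 stayed past 2-fold under all 5 other ways to compute the ratio; RKM5, at 0.59 with loess within blocks, RKM3, BMT2 and EFM2 did not.

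**Figure D5:**
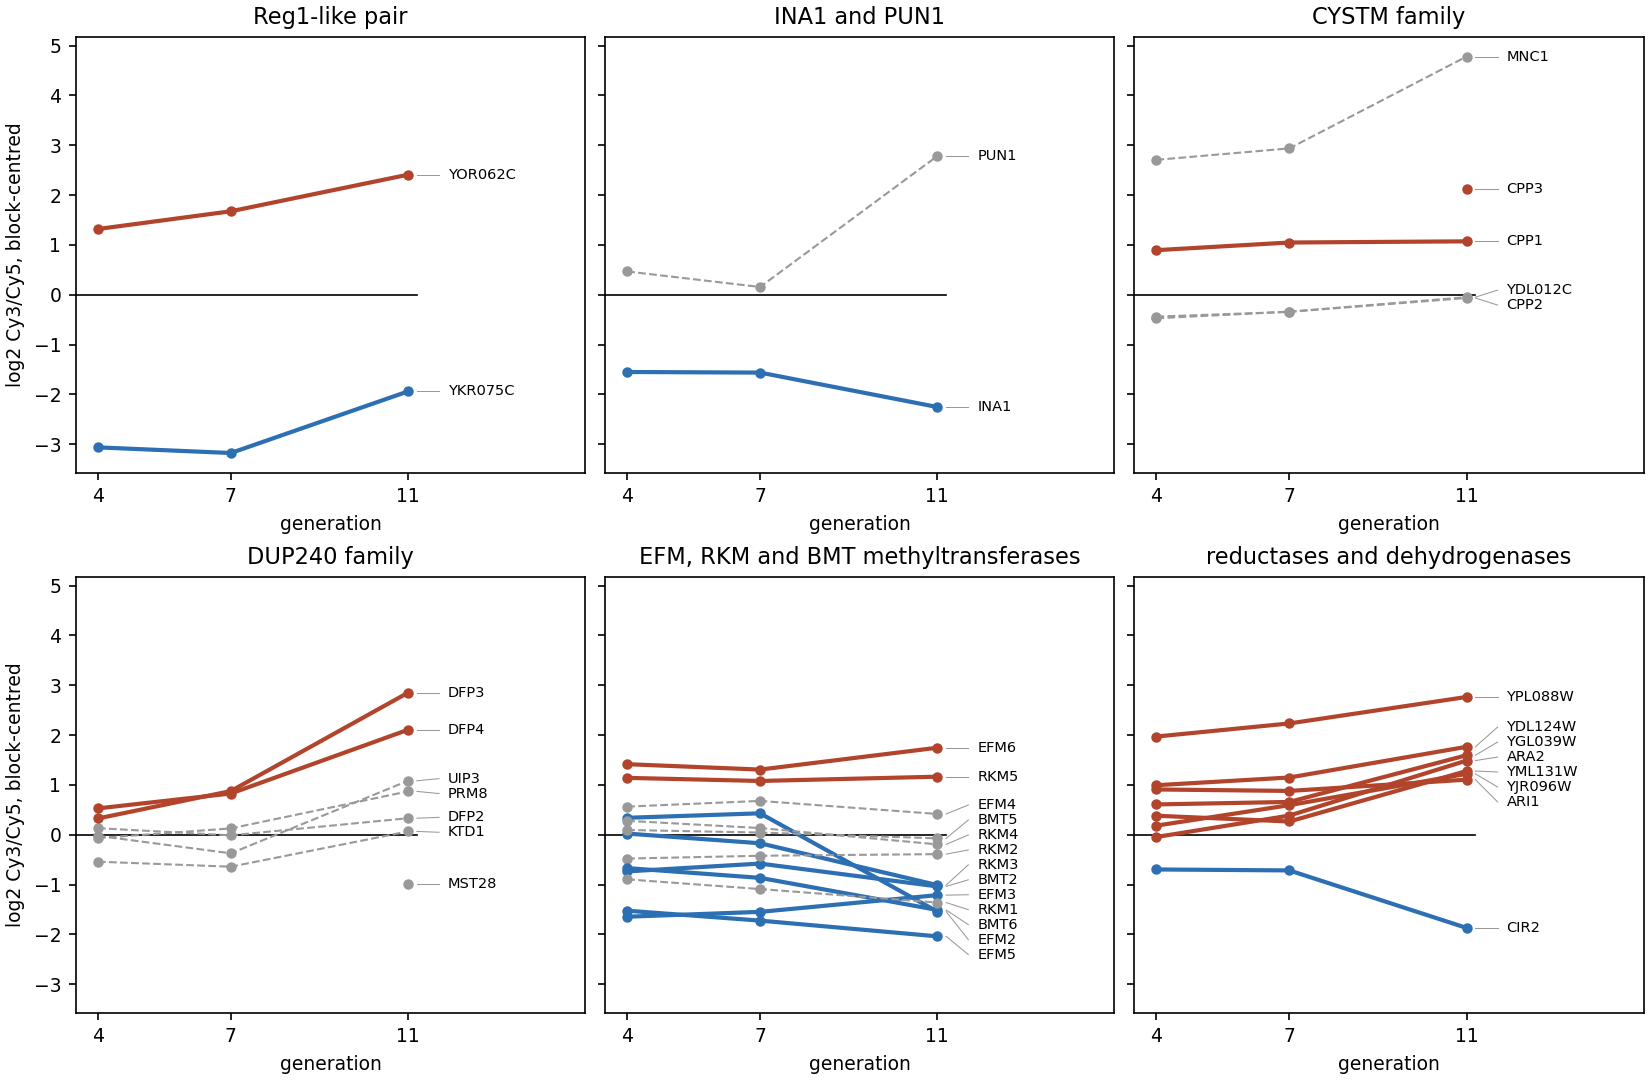
Log2 ratio against generation for members (solid, red where higher and blue where lower) and other features (grey, dashed) of 5 families, and for the members annotated as reductases or dehydrogenases; points below the signal limit are not drawn. YOR062C and YKR075C keep opposite signs throughout, MNC1 reaches 4.78, and EFM2 crosses 0 between the 7th (0.43) and the 11th (-1.54) generation.

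Of 20 unnamed features tested whose deposited annotation names a reductase or dehydrogenase, 7 were higher and 1 lower at the 11th generation, which is 35% higher beside 12.7% of all unnamed features. The higher ones were YPL088W, YDL124W, YGL039W, ARA2, YML131W, YJR096W and ARI1, and the lower one was CIR2. YDL124W, a keto amide reductase that uses NADPH, had log2 ratios of 0.99, 1.15 and 1.76. Its raw Cy3 signal reached 5701 against 590 in Cy5, which puts it among the brighter members. YGL039W and ARI1 (YGL157W), related oxidoreductases, had 1.60 and 1.11 at the 11th generation, and 0.66 and 0.88 at the 7th. YML131W had 0.38, 0.27 and 1.28, and of its relatives among quinone-oxidoreductase-like features YCR102C had 0.38 and YNL134C -0.18 at the 11th generation, while YLR460C was below the limit. YML131W and YJR096W did not stay past 2-fold under all 5 other ways to compute the ratio, with 0.63 and 0.96 under loess within blocks.

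Of 83 unnamed features whose cellular component entry on the array names the mitochondrion, 10 were higher and 5 (6.02%) lower. These shares are near the 12.7% and 6.98% of all unnamed features. Features with mitochondria in the description alone were not counted. TAM41 (YGR046W), which makes CDP-diacylglycerol inside mitochondria, had log2 ratios of 1.43, 1.47 and 1.63. RRG9, needed to keep mitochondrial DNA, had 0.91, 1.14 and 1.42, and CCM1, which stabilises mitochondrial ribosomal RNA, had 1.13, 1.05 and 1.58. MIC26, a subunit of the complex that shapes cristae, had 0.58, 0.58 and 1.28. TAM41 and CCM1 were past 2-fold on every array, while MIC26 was past it on the last alone.

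The lower mitochondrial members were CIR2, FSF1 at -1.53, CQD1 at -1.33, IMO32 at -1.12 and LAM4 at -1.09, the last a protein that moves sterols between membranes at contact sites. Other members act in mitochondria by their current names without that component entry on the array. MCO10 (YOR020W-A), associated with ATP synthase and found in purified mitochondria per its deposited description, had 1.04, 1.20 and 2.19. COA4, like COA2 an assembly factor of cytochrome oxidase, had 0.93, 0.95 and 1.37, so the pair lay on opposite sides. TAM41, RRG9, CCM1 and UPS2 were among 6 of the 10 higher mitochondrial members that did not stay past 2-fold under all 5 other ways to compute the ratio. Under loess over the array TAM41 was at 0.72, RRG9 at 0.81, CCM1 at 0.52 and UPS2 at 0.43. Of the 5 lower ones CIR2 alone stayed past it, with FSF1 at -0.90, CQD1 at -0.54 and LAM4 at -0.61 under the same loess and IMO32 at -0.88 under loess within blocks. COA4 was at 0.96 under loess within blocks.

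Cell wall proteins were found on both sides. NCW2 and TOH1 (YJL171C), both anchored through a lipid tail, were the higher ones of 13 unnamed features with a cell wall annotation, and NFG1, TOS6 (YNL300W) and YNL190W were the lower ones. These are 15.4% and 23.1% of the 13, beside 12.7% and 6.98% of all unnamed features. TOH1 had log2 ratios of 1.14, 0.90 and 1.87. TOS6 had -1.31, -1.26 and -1.64, and YNL190W had -0.73, -0.91 and -1.34. Under loess over the array TOS6 was at -0.87 and YNL190W at -0.42.

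Of 40 unnamed features whose annotation mentions regulation by stress, heat or damage, 11 (27.5%) were higher and 3 (7.50%) lower, beside 12.7% and 6.98% of all unnamed features. NCW2, YOR062C, TOH1, IAT4, EGO4, ROQ1, MHO1, YML131W, VRL1, YJR096W and CAL4 were the higher ones, and 4 of the 11, the first 4 named, stayed past 2-fold under all 5 other ways to compute the ratio. IAT4 (YDR391C) had log2 ratios of 0.85, 0.74 and 1.73, and EGO4 had 0.61, 0.36 and 1.54. Of 17 features with a mention of glucose or carbon source, 5 (29.4%) were higher and 2 lower, beside the same 12.7% and 6.98%. Of those 5, YOR062C alone stayed past 2-fold under all 5 other ways to compute the ratio, and both lower ones did. The lower ones were YKR075C and RBH2, the latter at -1.10, -1.04 and -1.35. These groups were drawn from words in the deposited annotation and share genes, with YOR062C, YKR075C and MHO1 in both.

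The autophagy receptors among the members, grouped after the values had been seen, were both higher, as were 12.7% of all unnamed features tested. Other autophagy genes are not covered here. ATG40 (YOR152C), through which parts of the endoplasmic reticulum are taken up for breakdown, had log2 ratios of 0.64, 0.76 and 2.06. ATG34 (YOL083W), the receptor that brings alpha-mannosidase to the vacuole during starvation, had 0.55, 0.63 and 1.87. Their raw Cy5 signals of 52.4 and 57.3 at the 11th generation were just above the limit, and under loess over the array the values were 0.68 and 0.86. GRX6, a glutaredoxin of the secretory pathway, had 1.02, 1.10 and 1.44 with a raw Cy5 signal of 223, and stayed past 2-fold under all 5 other ways to compute the ratio.

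Some enzymes of glutathione breakdown were found among the lower members, a grouping made after the values had been seen. At the 11th generation 6.98% of unnamed and 12.9% of named features tested were lower. Other enzymes of this breakdown are not covered here. DUG1 (YFR044C), the dipeptidase that splits cysteinylglycine, had log2 ratios of -1.10, -1.06 and -1.52, and OXP1 (YKL215C), an oxoprolinase, had -1.03, -1.14 and -1.16. Both were past 2-fold on all 3 arrays. SEI1 (YLR404W), the yeast seipin of lipid droplets, had -1.53, -1.54 and -1.53 and was thus level over the arrays. NBA1 (YOL070C), which marks old division sites at the bud neck, had -0.84, -0.79 and -1.42. DUG1, OXP1 and SEI1 came below 2-fold under loess over the array, at -0.66, -0.61 and -0.89, while NBA1 did not.

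Higher and lower members differed in median length, which was not tested. The median gene length was 768 base pairs for the 96 higher members with an entry in the reference table and 1105.5 for 52 lower ones, beside 966 for unnamed features tested and 1230 for all single-locus features tested. Genes of up to 300 base pairs made up 11 (11.5%) of the 96 higher members, 4 (7.69%) of the 52 lower ones, 7.56% of unnamed features and 3.11% of all. DPI8, LSO1, YBR085C-A, MCO10 and CPP3 are among these short higher genes, and COA2 and YLR342W-A among the lower ones.

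Within 10 genes of a chromosome end lay 10 (10.4%) of the higher members, 1 (1.92%) of the lower ones, 5.22% of unnamed and 3.36% of all features tested. They were PBI1, YEL073C, YMR317W, DFP4, YPL278C, YER187W, YJL213W, YML131W, YOR389W and FDC1, and the lower one was OXP1. YPL278C and YOR389W, both annotated as regulated by copper levels, had log2 ratios of 1.86 and 1.19 at the 11th generation. YER187W, annotated as induced in respiratory-deficient cells, had 1.46, 1.56 and 1.48, nearly the same on each array.

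At least 1 direct neighbour was past 2-fold in the same direction for 23 (24.0%) of 96 higher members, for 16 (30.8%) of 52 lower ones, for 17.2% of unnamed and 18.6% of all features tested. For no member were both neighbours so, beside 0.26% of unnamed and 0.97% of all features tested. Members next to each other were EFM6 and KSH1, an essential factor of early secretion at 1.13, and LDS2 and RRT8, both linked to lipid droplets and the spore wall, at 1.30 and 1.02. Neither pair stayed past 2-fold under all 5 other ways to compute the ratio: under loess within blocks KSH1 was at 0.81, LDS2 at 0.60 and RRT8 at 0.99. The neighbours named next were picked from those past 2-fold in the same direction, so their agreement in sign is set by that choice. DFP3 lay beside CIT2, the peroxisomal citrate synthase, at 3.73, RKM5 beside TIS11 at 3.61 and ARI1 beside AMS1, the vacuolar alpha-mannosidase, at 3.27. Several lower members lay beside ribosomal protein genes that were lower too, RRT5 beside RPL29 at -1.61, TOS6 beside RPL18B at -1.87 and BMT6 beside RPL22A at -1.74. Of all named features tested 12.9% were lower, and the share among ribosomal protein genes was not counted here. YJR015W, at -1.45, lay beside ILV3, an enzyme of branched-chain amino acid synthesis, at -3.45.

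The members next to the cutoff were little different from the features just outside it. Just inside on the higher side were YFT2 and RIE1, both at 1.01, and just outside PKP1 and YBL055C, both at 0.99. On the lower side RKM3 and YMR209C lay inside at -1.01, and EMW1 and YSP2 outside at -0.99. These gaps are smaller than the spread of the ACT1 spots of the same array. All 5 other ways to compute the ratio kept 42 of the 98 higher and 20 of the 54 lower members past 2-fold, and none of the 152 changed sign under any of them.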

How the data were processed

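Per the file headers, the array files list raw Cy5 and Cy3 intensities spot by spot, and the authors' deposited ratio is Cy3 over Cy5 after background subtraction and scaling. The deposited series table gives its log2 values, which differed from those of the array files by at most 5e-08. The scanner software settings are not given in the sources used here.

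Raw intensities were used here. From each channel the mean of the 320 blank spots was subtracted, log2 of Cy3 over Cy5 was taken, and the median over gene features of the print block was subtracted. A feature was measured where both raw signals reached 2 times the blank mean, and past 2-fold where the size of its log2 ratio reached 1. Counts and medians are descriptions, with 1 array per generation and no p-value. The number of arrays limits the precision.

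The other ways to compute the ratio were the whole-array median, no background subtraction, the deposited ratio, and normexp (offset 50) with loess (span 0.3) within blocks or over the array in limma 3.58.1 under R 4.3.3. Other steps used Python 3.11.15, numpy 2.4.6 and pandas 2.3.3. The calculation was tested on simulated data.

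The members and gene groups were chosen with earlier results of these data known. Named were the 12 highest and lowest members, those with a current gene name, those past 2-fold on all arrays, those next to the cutoff, and whole families. Gene names, lengths and order came from the RefSeq gene table, with genes ordered along each chromosome by their start coordinates.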

Additional observations from a re-analysis of the deposited data

Results flagged for a closer look

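For 2 members the ratio at the 11th generation had the opposite sign to that at both earlier generations. The difference between generations was not tested in either, since each generation has 1 array. YFT2 (YDR319C), an ortholog of a fat storage-inducing membrane protein, had log2 ratios of -0.17 at the 4th, -0.052 at the 7th and 1.01 at the 11th generation. EFM2 (YBR271W) had 0.34 at the 4th, 0.43 at the 7th and -1.54 at the 11th generation. In YFT2 the earlier values lie within the spread of the ratios between the 4th and 7th generation arrays, an SD of 0.209, and its raw Cy5 signal of 53.9 was next to the limit of 50.1.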

How the results depend on the processing

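The counts depended on the signal limit and on the treatment of dim spots, and the cause was not tested. With 3 times the blank mean as the limit, 56 unnamed features were higher at the 11th generation in place of 98. With the blank mean plus 2 SD there were 171. With loess within blocks 61 were higher, 57 of them members. Lower features numbered 90 with the deposited ratio and 91 with the whole-array median in place of 54, 37 of them members in either case, and 30 without subtraction or with loess within blocks. Higher members past 2-fold at the 4th and 7th generation were 14 and 23 with the stricter limit, and 18 and 17 with loess within blocks, in place of 30 and 37. Lower members past 2-fold at the 4th and 7th generation, 26 and 24 as reported, were 15 and 13 without subtraction, 16 and 15 with loess over the array, and 13 and 10 with loess within blocks.

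The median log2 ratio of the higher members at the 4th and 7th generation was 0.71 and 0.78 without subtraction, 0.53 and 0.58 with loess over the array, and 0.59 and 0.57 with loess within blocks. That of the lower members was -0.82 and -0.91 with the deposited ratio, -0.84 and -0.91 with the whole-array median, -0.75 and -0.77 without subtraction, -0.59 and -0.59 with loess over the array, and -0.76 and -0.78 with loess within blocks. Of the 152 members, 65 came below 2-fold with loess within blocks, 74 with loess over the array, 45 with the deposited ratio, and 47 each with the whole-array median and without subtraction. The share of members with both neighbours past 2-fold the same way was 0%, beside 0.26% of unnamed and 0.97% of all features tested. With either neighbour it was 26.4%, beside 17.2% and 18.6%. With the Cy5 of the other 2 arrays as the denominator, a choice made after the data had been seen, 105 were higher and 54 lower, 86 and 47 of them members. Promoter motifs were not run, because no promoter sequences were used here. No paired analysis was possible because each generation was measured on 1 array. Precision is limited by that and, for higher members under 3 times the blank mean in a channel, by signal close to the limit.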

Other observations

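Members that act in transcription, RNA or chromosome maintenance by their current names were found on both sides. These groups were drawn after the values had been seen. RTR1 (YER139C), a phosphatase of the RNA polymerase II tail, had log2 ratios of 1.08, 1.01 and 1.37 at the 4th, 7th and 11th generation. DXO1 (YDR370C), a decapping enzyme, had 0.90, 1.06 and 1.17. MSA2 (YKR077W), an activator of G1 transcription, had -0.33, -0.92 and -1.53, and MIT1 (YEL007W), a regulator of filamentous growth, had -0.81, -1.07 and -1.62. ALK2 (YBL009W), a kinase of the haspin type, had -0.89, -0.91 and -1.25. MSA2 and MIT1 stood in the order of generations, while ALK2 was nearly level over the first pair of arrays.

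Members of the secretory and endosomal system were likewise split. EMC10 (YDR056C), a subunit of the endoplasmic reticulum membrane complex, had 0.24, 0.57 and 1.04, and KSH1 (YNL024C-A) had 0.67, 0.74 and 1.13. GDT1 (YBR187W), a Golgi transporter of calcium and manganese, had -0.70, -0.79 and -1.43. RFU1 (YLR073C), an inhibitor of the ubiquitin protease Doa4, had -1.26, -0.98 and -1.57. ART5 (YGR068C), an arrestin that directs the uptake of a plasma membrane transporter, had -0.49, -0.63 and -1.36. RTR1, DXO1, MSA2, ALK2, EMC10, KSH1, GDT1 and ART5 came below 2-fold in at least one of the 5 other ways to compute the ratio, and MIT1 and RFU1 in none.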
